A study of Danio rerio with 14 samples.

Results

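The genes described here encode machinery that carries proteins and membrane through the cell: coat proteins, tethers and fusion proteins of the secretory route, adaptors and sorting proteins of endosomes, and subunits of the vacuolar proton pump. They were taken by symbol, as every gene whose name starts as those of the sec, COPI, vps, chmp, snx, vamp, syntaxin, AP-1 to AP-4 adaptor, tmed, trapp and atp6v families do, without the COP9 signalosome. The rule found 126 of the 8793 genes that the array annotation names through a probe set of 1 gene. No measured value entered this match by symbol, although the families were chosen with earlier results of these data known. Together the 126 genes have 152 probe sets, and each gene is represented by the one with the highest mean signal. Of the 126 genes, 112 were bright enough to be tested, and the other 14 are accounted for at the end.

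Proteins that enter the secretory pathway pass through the Sec61 channel into the endoplasmic reticulum, leave it in COPII-coated vesicles and are brought back from the Golgi in COPI-coated ones. At the plasma membrane, the adaptor AP-2 links clathrin to receptors that are to be internalized, and on endosomes the retromer and sorting nexins return cargo while the ESCRT complexes bud it inward for degradation. The V-ATPase acidifies these compartments, with a V1 sector that hydrolyses ATP and a V0 sector that carries the protons. In the gastrula these routes handle the adhesion molecule E-cadherin, morphogens and their receptors, and the yolk syncytial layer, an extraembryonic layer at the yolk surface, takes up membrane by endocytosis during epiboly, the spreading of cells over the yolk.

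RNA was measured on the Affymetrix Zebrafish Genome Array in 14 pools of about 20 whole embryos of the TL strain at 8 hpf (hours after fertilization). The embryos of 7 pools were raised in medium with 100 mM (0.6%) ethanol for 6 hours, starting at 2 hpf, and those of 7 control pools in medium without it. Pools numbered 1 to 6 and 8 in each group form 7 pairs, each from 1 batch of embryos. A pool mixes all tissues, yolk syncytial and enveloping layers included, so that fewer cells of a type and less RNA per cell cannot be told apart. The values are MAS5 signals on a linear scale, which order arrays for 1 probe set but do not rank genes against each other. Fold changes are on the log2 scale, ethanol minus control, from limma with embryo batch as a block, and genes are called changed where the p adjusted by Benjamini-Hochberg over all 9240 tested probe sets was at most 0.10.

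The array medians ran from 213 to 294 with no gap between the groups, and 19 of 20 gastrula cell type markers reached the signal minimum. Of these 1 was higher with ethanol and 0 were lower, with a median of 0.14 and sums of 93547 to 114398 in the control and 98109 to 157600 in the ethanol pools. Of 14 tested marker genes of the yolk syncytial layer, 10 were lower with ethanol and 0 were higher, with a median of -0.75. Their summed signal was 107202 to 149143 in the control and 90628 to 138019 in the ethanol pools. Of 14 tested markers of the enveloping layer, 1 was lower, with sums of 258473 to 284912 in the control and 245244 to 312977 in the ethanol pools. The study reports high RNA integrity numbers, read on a Bioanalyzer, for every sample, and processed all arrays together. As a further measure of RNA quality, the 3' over 5' signal ratio of the GAPDH control was compared within pairs. In 6 of 7 the ethanol pool had the higher ratio, with a mean log2 difference of 1.82. For the acta1 control the ethanol pool had the higher ratio in 5 of 7 pairs, with a mean log2 difference of 1.57. The part of these differences in the results below was not tested.

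Ethanol changed 5 of the 112 tested genes, or 4.46%, where 4.36% of all tested probe sets were called, so the share lay near that of the array as a whole. The gene ap2m1a rose, which was 0.893% of the tested genes against 2.36% of all probe sets. The genes chmp4c, atp6v1h, snx9b and snx11 fell, 3.57% of the tested genes against 2.00% of all probe sets. The median log2 change over the 112 genes was 0.01, with 57 above and 55 below 0, and over all probe sets it was -0.001. At an unadjusted p under 0.05, 15 of the 112 genes differed, 5 upward and 10 downward, and 15.0% of all probe sets did. With median centring of the arrays chmp4c alone was called, and the adjusted p of the other 4 ran from 0.120 to 0.315. With batch as a random block chmp4c and snx11 were called, and without the batch block or without a variance trend 0 genes were (4 up and 5 down, and 7 and 7, at an unadjusted p under 0.05). The 95% interval of the log2 change lay within 0.5 of 0 for 68 of the 112 genes (60.7%, against 53.9% of all probe sets). This held for 45 of 49 genes with a mean signal of at least 1000 and for 23 of 63 dimmer ones, so that a change of moderate size could not be bounded for most dim genes.

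**Figure D1:**
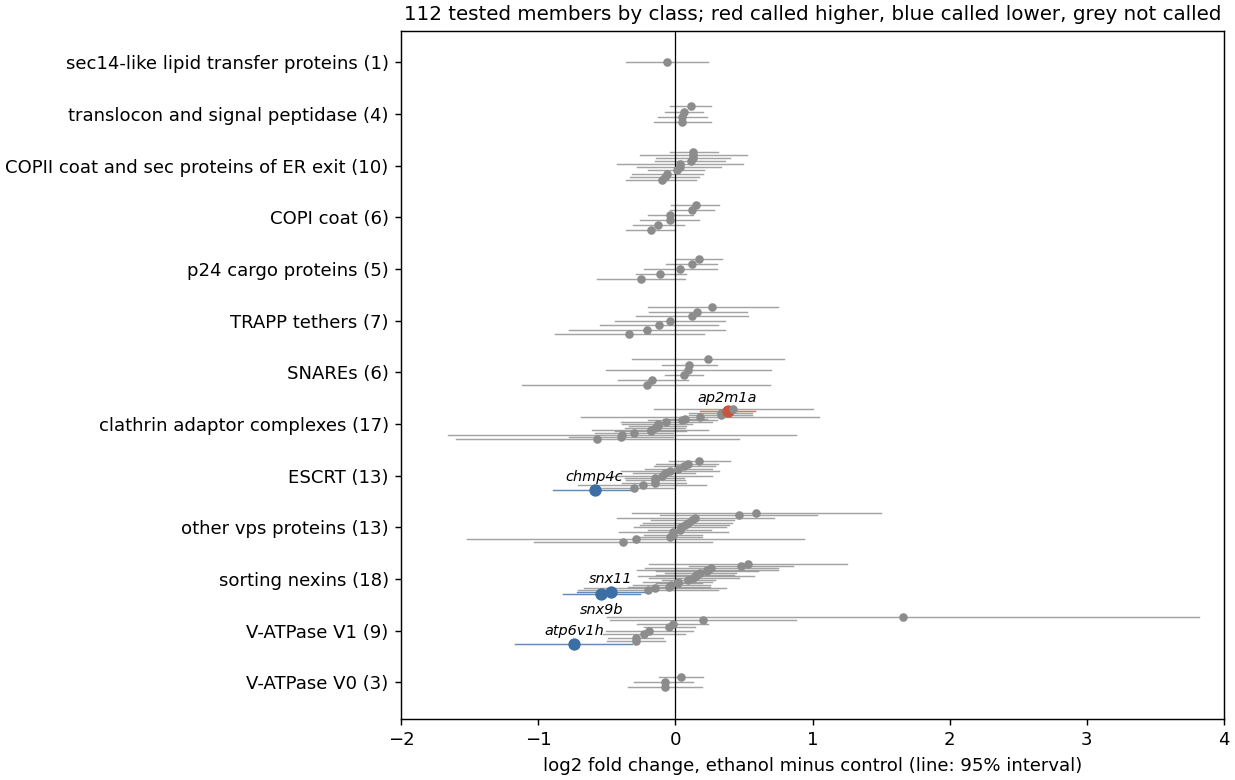
Log2 fold change (horizontal axis, ethanol minus control) of the 112 tested genes, 1 point per gene with its 95% interval as a line, arranged by class with the number of tested genes in brackets. The translocon, COPII and COPI classes gather close to 0, and of the 5 called genes ap2m1a lies to the right and chmp4c, snx11, snx9b and atp6v1h to the left.

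The first steps of secretion showed no called change. All 4 tested genes of the translocon and signal peptidase lay between 0.05 and 0.11 in log2, with every interval within 0.5 of 0. For sec61g, the small subunit of the Sec61 channel, signals were 22042, 25212 and 27878 (lowest, median, highest) in the control and 20993, 24628 and 37875 in the ethanol pools. The groups overlapped over the whole control range, and its log2 change was 0.11 (SE 0.07, adjusted p = 0.508). The single tested sec14-like gene, sec14l1, which belongs to a family of lipid transfer proteins, was at -0.06 (SE 0.14, adjusted p = 0.889).

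Of 10 tested genes of the COPII coat and related proteins of exit from the endoplasmic reticulum, none was called, the median was 0.03 and 9 had intervals within 0.5 of 0. They ranged from sec24c, a cargo-binding subunit of the inner coat, at -0.10 (SE 0.12) to sec13, a subunit of the outer coat, at 0.13 (SE 0.08). For sec13 the control pools measured 3698, 4668 and 5931 and the ethanol pools 4272, 5056 and 5831 (lowest, median, highest), and 5 of 7 pairs were higher with ethanol. The COPI coat was as even, with 6 tested genes between -0.18 for cope (SE 0.08, adjusted p = 0.319) and 0.15 for copz1 (SE 0.08, adjusted p = 0.449), and copa, the large alpha subunit, at -0.04 (SE 0.08). All 6 intervals were within 0.5 of 0 for the probe set used per gene, and further probe sets of copa, copb2 and copg2 are given below. The beta subunit gene copb1 was higher with ethanol in 7 of 7 pairs, but by only 0.12 in log2 (SE 0.08, adjusted p = 0.502).

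The p24 proteins, which the tmed genes encode and which help to select cargo in both coats, ranged from tmed4 at -0.25 (SE 0.15) to tmed2 at 0.17 (SE 0.08, adjusted p = 0.318), with a median of 0.03 over 5 genes. For tmed10, another of them, it was 0.12 (SE 0.09), from signals of 5681, 6956 and 8688 in the control and 6470, 7480 and 9281 in the ethanol pools. Of the 7 tested TRAPP genes, whose products tether vesicles to the Golgi, none was called, and they ran from trappc11 at -0.34 (SE 0.26) to trappc4 at 0.27 (SE 0.23), with trappc5 at 0.16 (SE 0.17). Their signals were low, and 1 of the 7 intervals was within 0.5 of 0. Of the SNAREs, the membrane fusion proteins, only 6 of 12 vamp and syntaxin genes could be tested. The sec22 genes were counted above with the COPII coat. For vamp3, a vesicle SNARE of recycling endosomes, the control pools measured 10790, 11902 and 12799 and the ethanol pools 11226, 12165 and 14258, a log2 difference of 0.06 (SE 0.07). The ends of that class were stx8 at -0.21 (SE 0.43) and vamp4 at 0.24 (SE 0.27), neither of which passed the test. The signals of stx8 were 111 to 190 in the ethanol pools and 39.3 to 328 in the control pools, through which alone it was tested.

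The 17 tested adaptor genes held the 1 gene that rose, where 2.36% of all probe sets were called higher. AP-2 has an alpha, a beta, a mu and a sigma chain, and ap2m1a (NCBI Gene 321051) encodes a mu chain, which recognizes sorting signals in the tails of receptors. In pairs 1, 2, 3, 4, 5, 6 and 8 its signal was 4692, 6950, 3056, 4995, 4325, 6327 and 6139 in the control pools and 6505, 6956, 4990, 5597, 7707, 6939 and 7860 in the ethanol pools. The ethanol pool was the higher one in all 7 pairs, although by almost nothing in pair 2, and the groups overlapped. The means were 5212 ± 1346 and 6651 ± 1052 (SD, n = 7), a log2 change of 0.38 (SE 0.10, 95% interval 0.18 to 0.58, 1.30-fold, adjusted p = 0.0403). Without pair 3 the change was 0.33 (adjusted p = 0.123) and without pair 5 it was 0.31 (adjusted p = 0.141), so that the call was lost without either.

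Beside ap2m1a, no tested AP-2 gene passed. Its paralog ap2m1b, the other mu chain gene, measured 1285, 1293, 979, 1012, 1285, 1109 and 1204 in the control pools and 1332, 1934, 1404, 1607, 1461, 1224 and 1356 in the ethanol pools, in the same order of pairs. It was higher with ethanol in 7 of 7 pairs, with overlapping groups and a log2 difference of 0.33 (SE 0.11, adjusted p = 0.131). A dimmer probe set for ap2m1b gave 0.49 (SE 0.24, adjusted p = 0.348), higher in 5 of 7 pairs. The beta chain gene ap2b1 had control signals of 836, 1120 and 1613 and ethanol signals of 1008, 1452 and 1773 (lowest, median, highest), and was also higher in 7 of 7 pairs, by 0.33 (SE 0.11, adjusted p = 0.144). The alpha chain gene ap2a1 did not share this direction, with a log2 difference of -0.13 (SE 0.10, adjusted p = 0.579) and 2 of 7 pairs higher. The difference between the AP-2 chains was not tested, and no gene for the sigma chain was among those described here.

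In AP-1, which works at the trans-Golgi network and endosomes, 0 of 7 tested genes were called, 5 were below 0 and the median was -0.15. In AP-3, which sorts cargo to lysosomes and related organelles, 0 of 5 were called, 4 were below 0 and the median was -0.18. The lowest value among the adaptors was that of ap3m2, the mu chain of AP-3, at -0.57 (SE 0.49, adjusted p = 0.635). Its signals were dim, 32.2 to 245 in the ethanol pools and 64.3 to 309 in the control pools, through which alone it was tested. The highest value among the adaptors was that of ap4m1, the mu chain of AP-4, at 0.42 (SE 0.28, adjusted p = 0.511). Without pair 3, where its control signal was 83.5, the log2 difference of ap4m1 was 0.13 (adjusted p = 0.857).

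**Figure D2:**
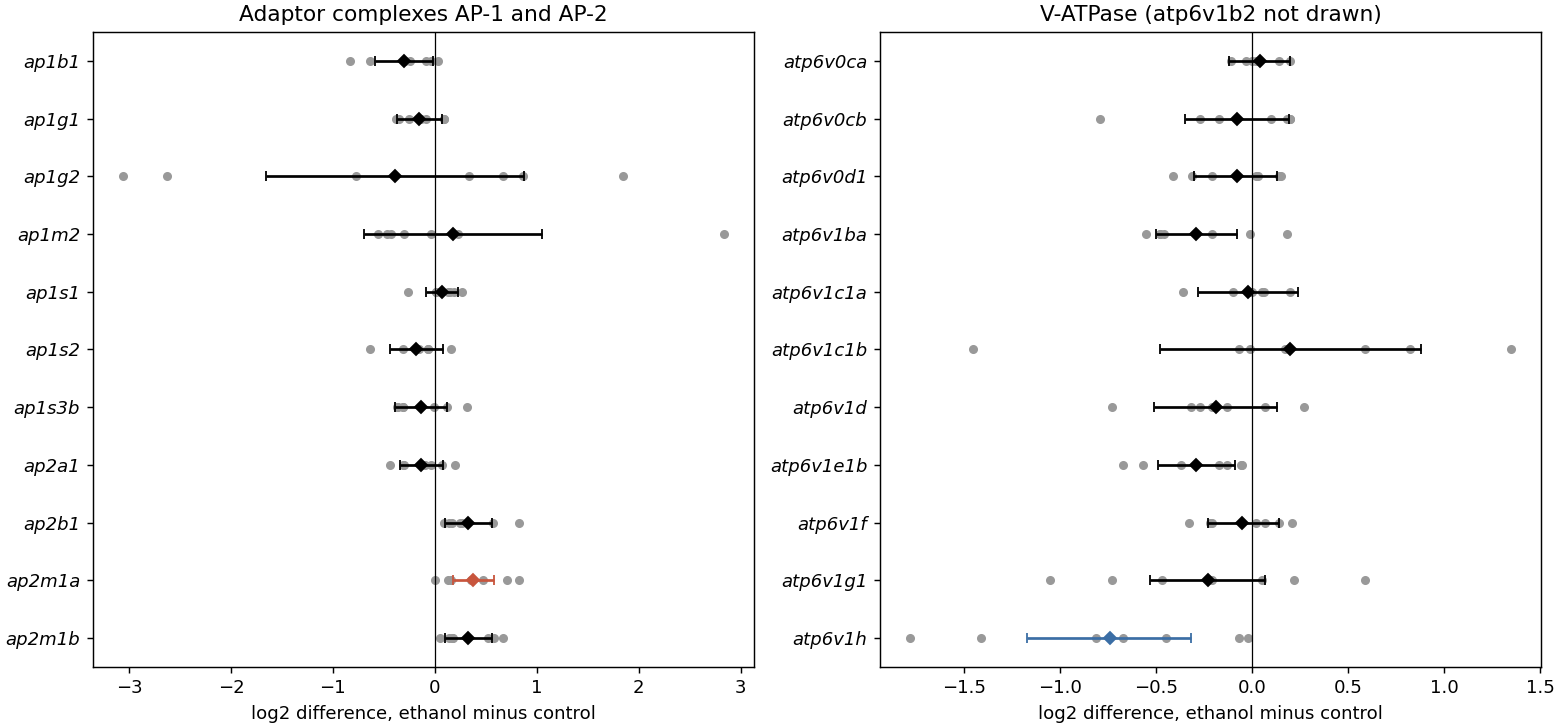
Log2 difference of each pair (grey points, ethanol minus control) and fitted log2 change with its 95% interval (diamond and bar) for AP-1 and AP-2 genes on the left and V-ATPase genes on the right, with called genes in red (higher) or blue (lower). All 7 pair differences of ap2b1, ap2m1a and ap2m1b lie at or above 0, those of atp6v1e1b and atp6v1h lie below 0, and atp6v1b2 was left off because its signals were as low as 4.96.

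The ESCRT complexes bend endosomal membrane inward and cut the neck of the bud. Among their 13 genes 1 fell and 0 rose, where 2.00% of all probe sets were called lower. The median was -0.10, with 9 below 0. The gene that fell was chmp4c (NCBI Gene 550542), a form of the ESCRT-III filament protein. In human cells this protein also delays the last cut of cell division while chromatin is still in the bridge. In pairs 1, 2, 3, 4, 5, 6 and 8 its signal was 695, 664, 1108, 915, 995, 634 and 693 in the control pools and 510, 560, 770, 406, 517, 407 and 629 in the ethanol pools. Each ethanol pool was below its own control, with the widest gaps in pairs 4 and 5, and the groups overlapped through the ethanol pool of pair 3. The means were 815 ± 188 and 543 ± 128 (SD, n = 7), a log2 change of -0.59 (SE 0.14, 95% interval -0.89 to -0.29, 1.5-fold lower, adjusted p = 0.0344). The call was lost without pair 4 (-0.49, adjusted p = 0.117) or pair 5 (-0.53, adjusted p = 0.110).

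The closest paralogs of chmp4c on the array were chmp4ba at -0.24 (SE 0.22, adjusted p = 0.663) and chmp4bb at -0.15 (SE 0.11, adjusted p = 0.558), and neither passed. The gene vps4b, for the ATPase that takes ESCRT-III filaments apart, was at -0.30 (SE 0.14, adjusted p = 0.332), lower in 5 of 7 pairs. At the other end chmp1b, another ESCRT-III protein, was at 0.17 (SE 0.11, adjusted p = 0.483). Of 13 other tested vps genes, most of which belong to retromer or to tethers of endosomes and lysosomes, none was called. The retromer subunit gene vps29 had signals of 1842 to 3009 in the control and 1775 to 3477 in the ethanol pools and a difference of -0.04 (SE 0.11). The ends of the class were vps33a, a subunit of the lysosomal tether HOPS, at -0.38 (SE 0.31), and vps8, a subunit of the early endosomal tether CORVET, at 0.59 (SE 0.43), neither of which passed. The signals of vps8 were 21.3 to 303 in the control and 153 to 258 in the ethanol pools, through which alone it was tested. Without pair 1 its log2 difference was 0.14.

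Sorting nexins bind phosphoinositides on endosomes and carry cargo back. Of 18 tested, 2 fell and 0 rose, where 2.00% of all probe sets were called lower. The median was 0.11, with 12 above 0. The first, snx9b (NCBI Gene 558917), encodes a nexin that binds membrane and dynamin at the necks of endocytic buds. Its signal in pairs 1, 2, 3, 4, 5, 6 and 8 was 1234, 1252, 879, 831, 1042, 1183 and 1381 in the control pools and 731, 873, 725, 329, 931, 967 and 1017 in the ethanol pools. The ethanol pool was the lower one in every pair and was far lower in pair 4, while the groups overlapped. Its log2 change was -0.54 (SE 0.14, 95% interval -0.82 to -0.26, 1.45-fold lower, adjusted p = 0.0403), and -0.41 (adjusted p = 0.117) without pair 4.

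The second was snx11 (NCBI Gene 492678), an endosomal nexin built of little more than its lipid-binding domain. It measured 1013, 1192, 1229, 1426, 1043, 1000 and 1022 in the control pools and 989, 827, 843, 811, 645, 723 and 885 in the ethanol pools. Every ethanol pool was below every control pool, although in pair 1 by little. It was the 1 gene of 112 (0.893%) whose groups did not overlap, which held for 0.357% of all probe sets. The means were 1132 ± 159 and 818 ± 111 (SD, n = 7), a log2 change of -0.47 (SE 0.12, 95% interval -0.72 to -0.22, 1.38-fold lower, adjusted p = 0.0416). Without pair 4 it was -0.41 (adjusted p = 0.132) and without pair 5 it was -0.43 (adjusted p = 0.115).

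The other nexins did not pass. The highest was snx2, a retromer-associated nexin, at 0.53 (SE 0.35, adjusted p = 0.503), higher in 7 of 7 pairs from signals of 61.4 to 236 in the control and 115 to 330 in the ethanol pools. Next was snx10a, at 0.48 (SE 0.18, adjusted p = 0.198) and higher in 6 of 7 pairs. For snx12 the 3 probe sets disagreed in size: the brightest gave 0.02 (SE 0.08), and the others gave 0.44 (SE 0.17, adjusted p = 0.209, higher in 6 of 7 pairs) and 0.13 (SE 0.17).

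**Figure D3:**
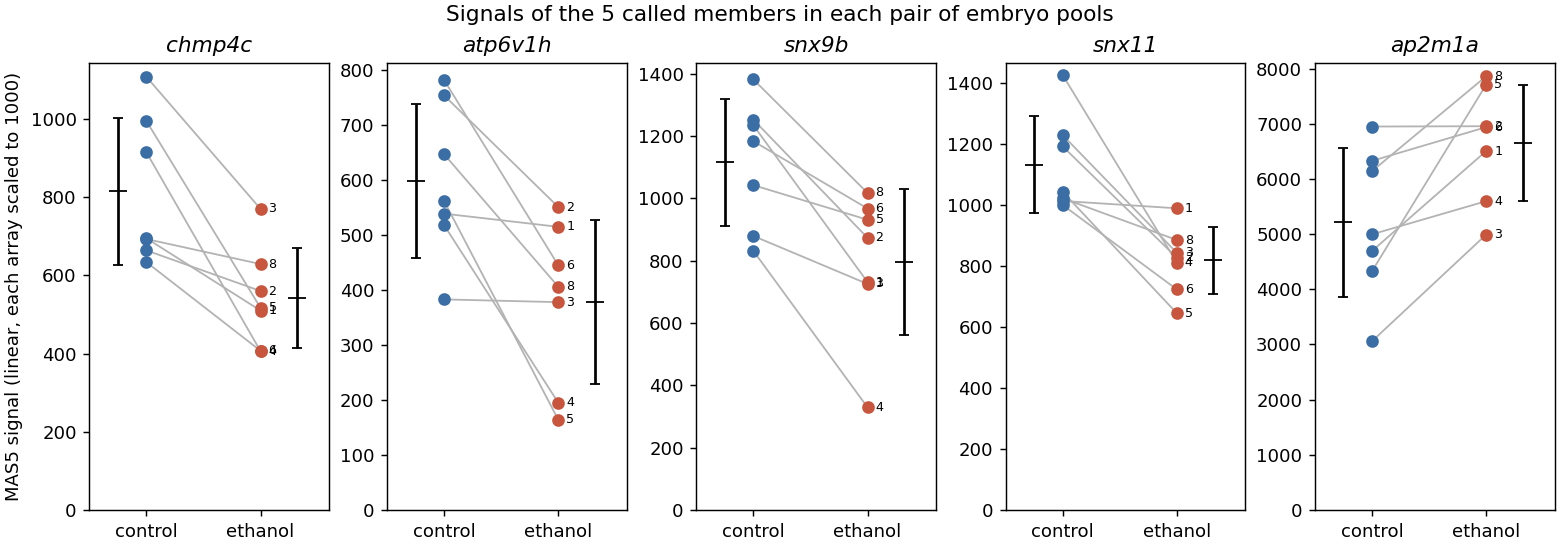
MAS5 signal (vertical axis, linear, from 0) of the 5 called genes in each pool, with lines joining the control (blue) and ethanol (red) pool of a pair, pair numbers beside the ethanol points, and bars for mean and SD of the 7 pools. The lines of chmp4c, atp6v1h, snx9b and snx11 all slope down and only the groups of snx11 are fully apart, while those of ap2m1a slope up or, in pair 2, stay level.

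Of the 12 V-ATPase genes, 1 fell and 0 rose, where 2.00% of all probe sets were called lower. It was atp6v1h (NCBI Gene 286779), for the V1 subunit H, which couples ATP hydrolysis to proton transport and keeps a detached V1 sector inactive in yeast. Its signal in pairs 1, 2, 3, 4, 5, 6 and 8 was 539, 754, 383, 518, 562, 782 and 647 in the control pools and 515, 551, 378, 195, 164, 445 and 406 in the ethanol pools. The ethanol pools of pairs 4 and 5 were the lowest of all, pairs 1 and 3 hardly differed, and the groups overlapped. The means were 598 ± 140 and 379 ± 149 (SD, n = 7), a log2 change of -0.74 (SE 0.20, 95% interval -1.17 to -0.32, 1.68-fold lower, adjusted p = 0.0589). The call was lost without pair 4 (-0.63, adjusted p = 0.166), pair 5 (-0.57, adjusted p = 0.172), pair 6 (-0.73, adjusted p = 0.138) or pair 8 (-0.76, adjusted p = 0.122).

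In the V1 sector 7 of 9 tested genes were below 0, where 4641 of all 9240 probe sets were. The median was -0.19, and none but atp6v1h passed the test. Of those below 0, atp6v1c1a at -0.02 (SE 0.13) and atp6v1f at -0.05 (SE 0.09) hardly differed. The stalk subunit gene atp6v1e1b had control signals of 2278, 3024 and 3515 and ethanol signals of 1760, 2769 and 3209 (lowest, median, highest). It was lower in 7 of 7 pairs, by 0.05 to 0.67 in log2, and its log2 difference was -0.29 (SE 0.10, adjusted p = 0.135). The gene atp6v1ba, for a subunit of the catalytic head, was at -0.29 (SE 0.10, adjusted p = 0.159), lower in 6 of 7 pairs, and atp6v1g1, for another stalk subunit, was at -0.23 (SE 0.14). Under alternative settings atp6v1ba was called lower with array weights, without pair 1 and without pair 5, and atp6v1e1b without pair 1. The value of 1.66 for atp6v1b2, another gene of the head, had an SE of 1.03 and rested on signals of 4.96 to 187 in the control and 23.6 to 246 in the ethanol pools. This gene was tested through its ethanol pools alone. In the V0 sector the 3 tested genes lay between -0.08 and 0.04, with intervals within 0.5 of 0. They were atp6v0ca and atp6v0cb, for the proton-carrying ring, and atp6v0d1, which joins the ring to V1. The difference between the sectors was not tested.

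Directions were the same in all 7 pairs for 10 of the 112 genes (8.93%), against 6.11% of all probe sets. Upward these were copb1, ap2b1, ap2m1b, ap2m1a and snx2, and downward chmp4c, atp6v1h, atp6v1e1b, snx9b and snx11. Without pair 4, 0 of the 112 genes were called lower (7 were at an unadjusted p under 0.05), ap2m1a was still called higher, and the log2 changes of the 4 genes that fell were -0.41 to -0.63. In the same fit the probe sets called lower on the whole array went from 185 to 92. On the whole array this drop was not particular to pair 4, as 89 were called lower without pair 8. With pair 1 left out instead, 233 were. Among the 112 genes only the fit without pair 4 had 0 lower calls. With any other pair left out, 2 to 6 genes were called lower. Without pair 5 these were snx9b and atp6v1ba, and atp6v1ba was not called with all pairs. In that fit chmp4c, snx11 and atp6v1h lost the call as well (adjusted p = 0.110, 0.115 and 0.172).

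Batches of embryos differed in these genes as well. By a moderated F test over batches, 17 of the 112 (15.2%) passed the same threshold, against 22.3% of all probe sets. The smallest adjusted p was that of tmed3, a p24 gene, at 0.00037. Its signal was 6767 and 6179 in the control and ethanol pools of batch 2 and 6454 and 7488 in those of batch 6. In the other batches it was 1865 to 4434. These 4 pools stood above all 10 others, without regard to treatment, and the log2 difference with ethanol was 0.03 (SE 0.13).

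The probe sets for tmed3 did not all show this. A dimmer one gave 1920 and 1286 in batch 2 and 2251 and 1212 in batch 6, against 467 to 1429 elsewhere, and a batch difference of the same adjusted p of 0.00037. It was lower with ethanol in 6 of 7 pairs, by a log2 difference of -0.35 (SE 0.14, adjusted p = 0.232). The remaining one gave no called batch difference (adjusted p = 0.427). Batches 2 and 6 were the highest batches for 7 of the 17 genes called by batch (41.2%), among them snx7, cope and ap3s1, and for 27.2% of the 2058 probe sets called by batch. Others did not follow this order. The genes chmp2a, ap1s1 and vamp8 were highest in batches 4 and 5. The called genes ap2m1a (adjusted p = 0.0209) and snx9b (adjusted p = 0.0318) were among the 17. With both treatments in each batch, the log2 change of any gene is the same without the block, here 0.38 and -0.54. The adjusted p of ap2m1a and snx9b rose to 0.553 and 0.517 without it.

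**Figure D4:**
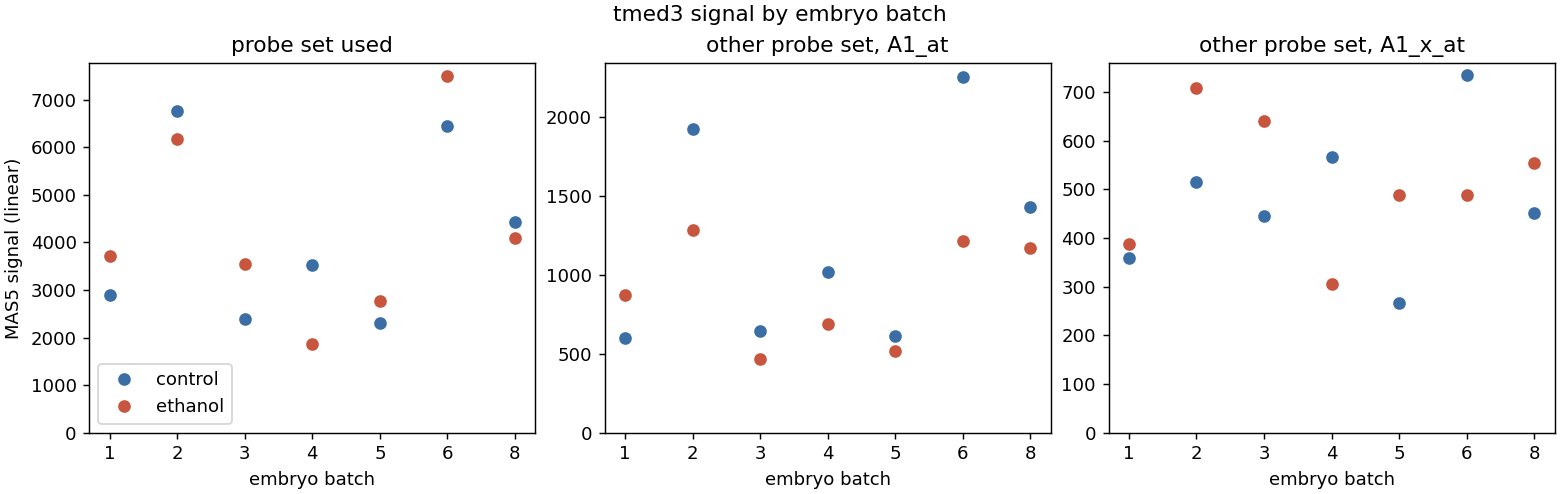
MAS5 signal (vertical axis, linear, from 0) of the 3 probe sets of tmed3 in each embryo batch (horizontal axis), with control pools in blue and ethanol pools in red. Both pools of batches 2 and 6 are at 6179 or more for the probe set used and the others at 4434 or less, while the probe set on the right shows no such order.

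Genes that work beside these families were taken from lists of other secretory pathway genes, of which 95 could be tested. Of them 3 rose and 0 fell, with a median of 0.01. Of all tested probe sets 4.36% were called, 2.36% higher and 2.00% lower. With both directions counted, the share called in these lists was below that of the array. For higher calls alone it was above that of the array, from 3 genes. These differences in share were not tested. In the clathrin and endocytic adaptor list dab2, an adaptor for lipoprotein receptors, had signals of 206, 497 and 754 in the control and 559, 725 and 926 in the ethanol pools (lowest, median, highest). It was higher in 7 of 7 pairs, most in pairs 2 and 6 where the control was low, and its log2 change was 0.72 (SE 0.18, adjusted p = 0.0433), or 0.55 without pair 2 (adjusted p = 0.127) and 0.60 without pair 6 (adjusted p = 0.137). It also lost the call with median centring (adjusted p = 0.102), a random block (0.115), no block (0.475) or no variance trend (0.213). The clathrin genes themselves were at -0.08 for clta, 0.06 for cltca and -0.11 for cltcb, and none passed.

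In the endosome list lamp1a, for a lysosomal membrane glycoprotein, rose from 639 to 906 in the medians of the groups. Its log2 change was 0.49 (SE 0.12, adjusted p = 0.0423), higher in 7 of 7 pairs, and it lost the call without pair 4, 5, 6 or 8 (adjusted p = 0.140, 0.101, 0.108 and 0.114), with median centring (0.174), without the block (0.358) or without the trend (0.112). The retrieval receptor gene kdelr2b, which brings chaperones back to the endoplasmic reticulum, was just past the threshold at 0.33 (SE 0.10, adjusted p = 0.0996), higher in 6 of 7 pairs. It was lost without any pair but the fourth, at adjusted p from 0.128 to 0.255. It was also lost with a signal minimum of 100 (adjusted p = 0.108) or none (0.107), median centring (0.401), a random block (0.378), no block (0.752) or no trend (0.228). Its paralog kdelr2a was just short of it at 0.27 (SE 0.08, adjusted p = 0.101), higher in 7 of 7 pairs. A Golgi tether gene, cog8, had the widest gap, at -1.94 (SE 0.61, adjusted p = 0.109), and did not pass. Its ethanol signals of 6.34 to 148 were all below its control signals of 173 to 283. These ethanol signals were also all under the signal minimum. The gene was thus tested through its control pools alone, a selection that favours a gap of this kind. The groups did not overlap in 0.357% of all tested probe sets. The lists of the translocon (15 tested), COPII regulators (15), SNAREs (11), exocyst (3) and proton pump accessory proteins (7) held no called gene. Those lists had medians between -0.03 and 0.10.

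Several genes were read by more than 1 probe set, and 15 further probe sets of 11 genes were tested. None was called. For copb2, a COPI subunit, the brighter probe set was at -0.04 (SE 0.10) and the dimmer one at -0.26 (SE 0.10, adjusted p = 0.227), lower in 7 of 7 pairs. For copg2 the values were -0.13, 0.06 and -0.83, the last with an SE of 0.44. That last probe set was lower in 7 of 7 pairs but dim, with means of 187 in the control and 107 in the ethanol pools. Its ethanol signals of 54.1 to 188 were all under the signal minimum, so it was tested through its control pools alone. The values of copa were -0.04 and 0.24 and those of chmp1a 0.09 and -0.13, so that the direction was not settled for either. The 5 called genes have 1 probe set each.

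The 14 genes below the signal minimum were ap4b1, copz2, sec22ba, snx18a, snx19b, stx11a, stx2a, stx3b, stx6, vamp1a, vamp5, vps16, vps39 and vps41. Fitted without a minimum, their log2 differences ran from -0.81 for stx6 to 1.35 for stx2a, and their adjusted p from 0.533 to 0.955. At these signals neither a change nor its absence could be read.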

How the data were processed

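The authors labelled total RNA with a 3' in vitro transcription kit and hybridized 1 array per pool. The deposited values are linear intensities, summarised per probe set by MAS5 and scaled on each array to a target of 1000. Detection calls, the scanned images and probe sequences were not analysed here. Of 15617 probe sets, 115 controls were left out, 10802 carry 1 symbol, 135 several and 4680 none. Tests covered the 9240 probe sets that reached a signal of 200 on 3 or more of the 7 arrays of either treatment, and 6262 were left out. The log2 signals were modelled in limma 3.58.1 (R 4.3.3) by treatment and batch as fixed terms, with a mean-variance trend in eBayes (6 residual and 12.7 prior degrees of freedom). Precision is limited by the number of arrays.

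Pools were paired by the number in their titles, and per the study each experiment was 1 batch. Same-numbered pools deviated together (correlation of deviations from the treatment means 0.112 to 0.378, over 0.1 in all 7 pairs), although control pool 1 correlated better with an ethanol pool of another number (0.136) than with its own (0.112). On simulated data with 9240 probe sets the fit recovered 35% of changes of 0.5 and 80% of changes of 1 in log2, and 5.74% of 122 calls were false. Only a small part of these probe sets was given a change, and the noise was drawn independently for each. The shares describe that setting and need not hold for the measured data.

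The genes and lists were chosen with earlier results of these data known. Genes were named by a rule: each called gene, in each class the one with the highest mean signal and the largest rise and fall, chmp4c, and up to 3 called genes of each other list. Other genes named were chosen after their values were seen. Alternatives were other signal minimums, normalizations, block settings (statmod 1.5.0), variance models, weights, adjustments and probe set choices, and each pair left out in turn. Figures were drawn with matplotlib 3.10.9.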

Additional observations from a re-analysis of the deposited data

Results flagged for a closer look

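The signals of the named genes were searched for a pool far from the other 6 of its group, in 72 groups, where chance alone flags about 1 in 20. In 1 of them, snx9b in the ethanol pools, the lowest signal, 329 in pair 4, lay far below the next, 725, a gap of 0.575 of the whole range, just past Dixon's limit for 7 arrays. Without pair 4 the log2 change of snx9b was -0.41 (adjusted p = 0.117) in place of -0.54. Whether a property of that pool or of its array set the value was not tested.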

How the results depend on the processing

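The counts of 1 gene called higher and 4 called lower held with a signal minimum of 100 or none, quantile normalization, an offset of 100 before the log, the mean over probe sets and the probe set with the highest median. At an adjusted p of up to 0.05 they were 1 and 3, and with array weights 1 and 5, with atp6v1ba added. Called higher were 2 genes with a minimum of 400 and with Storey's q-value, ap2m1a and ap2m1b both times. With median centring 0 were called higher and 1 lower, chmp4c (3 and 9 at an unadjusted p under 0.05), and 103 of all probe sets. With no replicate block 0 and 0 were called (4 and 5 unadjusted), with the block as a random effect 0 and 2 (6 and 8 unadjusted), and without a variance trend 0 and 0 (7 and 7 unadjusted). Over all probe sets these gave 28, 177 and 43 calls, against 403. Leaving out 1 pair gave 0 to 2 higher and 0 to 6 lower, and 209 to 467 calls over all probe sets. The 8 called genes named here, kdelr2b, dab2 and lamp1a included, kept direction and call in 83 of 136 values under the alternatives and lost the call in 53, with no change of sign. In this paired design the signal minimum, the block setting and the variance trend leave the log2 change as it is. For called and uncalled genes alike, the sign could therefore not change under those settings. Of 467 values of the 28 uncalled genes, 6 changed sign, all near 0. With a pair left out, sec14l1 ran from -0.18 to 0.03 (0.00 without pair 5, 0.03 without pair 6), snx12 from -0.03 (without pair 3) to 0.06, and vps29 from -0.11 to 0.05 (0.02 without pair 2, 0.05 without pair 3). With median centring snx12 was at -0.00. The cause of these changes was not tested.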
